A study of Mus musculus with 4 samples.

Results

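Chil3-positive Ly6c2 Ccr2 monocytes made up 1903 of the 32133 cell barcodes that passed the filter on quality, and of 33064 barcodes in all. They were chosen by the transcripts of single barcodes in droplet-based single-cell RNA sequencing, which counts each captured transcript by its unique molecular identifier (UMI). A barcode had to hold at least 300 genes and at most 15% mitochondrial UMIs, and then at least 2 UMIs of Ly6c2, 1 of Ccr2 and 1 of Chil3. It also had to hold under 1% of its UMIs in S100a8 and S100a9, the calprotectin genes that fill neutrophils, under 0.3% in the complement genes C1qa, C1qb and C1qc of mature macrophages, and under 0.5% in the collagen genes Col1a1, Col1a2 and Col3a1 of fibroblasts. The levels of these genes therefore describe the choice of the cells and are no result.

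Tumours had been grown from 4T1, an established line of mouse breast cancer, by placing 1000000 cells in 25 µl in the right flank of female BALB/c mice aged 6 to 8 weeks, and by the study's methods their cells were sorted for the leucocyte protein CD45. PBS was given intravenously on day 7 in 2 of the 4 samples, and TIOs, the T cell-inspired oncolytic system made from frozen macrophages that carry light-driven nanoparticles and RSL3, in 1 sample (TIOs+NIR3). All of them then received 980 nm near-infrared light at 1.0 W per cm2 for 5 min, once on each of days 8 to 10, and the tumours were taken on day 13. The remaining sample is titled PBS but its protocol names TIOs, so it was given no group. The matrix numbers its 4 libraries by a barcode suffix that no source used here ties to a sample, so treatments were not compared and each library is a sample of unknown treatment. Classes of cells were compared within libraries without a p-value, because the classes were themselves chosen from the same counts.

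Ly6C-high monocytes are made in the bone marrow, leave it through the chemokine receptor Ccr2 and enter inflamed tissue and tumours, where they can turn into macrophages or dendritic cells. Ly6c2 encodes a surface protein that marks them, and Chil3 encodes Ym1, a secreted chitinase-like protein without chitinase activity. In mouse monocytes Chil3 is known to be higher in cells that have recently left the marrow than in mature ones. Fewer transcripts per cell and a loss of transcripts during capture cannot be told apart in such data, so a barcode with 0 UMIs of Chil3 may still have held some.

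The 2 genes at the centre of the choice are shown by the 250 bases before their start, since their transcripts define the class, as RefSeq gives them for GRCm38.p6. Chil3 lies at chr3:106147554-106167564 and Ly6c2 at chr15:75108158-75111970. Capitals mark GGAAGT on either strand (ACTTCC on the other), the core bound by ETS-family factors such as PU.1, the lineage factor of myeloid cells. Chil3 holds it 2 times and Ly6c2 1 time.
Chil3, chr3:106167565-106167814, minus strand: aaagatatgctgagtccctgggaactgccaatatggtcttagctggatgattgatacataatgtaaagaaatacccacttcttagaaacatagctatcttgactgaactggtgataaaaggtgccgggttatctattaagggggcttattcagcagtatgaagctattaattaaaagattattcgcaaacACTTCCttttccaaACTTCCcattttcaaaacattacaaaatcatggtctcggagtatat
Ly6c2, chr15:75111972-75112221, minus strand: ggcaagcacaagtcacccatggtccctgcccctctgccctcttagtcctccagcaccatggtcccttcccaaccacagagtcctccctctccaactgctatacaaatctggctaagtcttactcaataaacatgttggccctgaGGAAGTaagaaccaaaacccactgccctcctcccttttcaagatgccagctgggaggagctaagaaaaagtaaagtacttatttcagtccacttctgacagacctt
The same 6 letters stand in 19.7% of all 32851 promoter windows of this length, so their presence sets neither gene apart. Spi1, which encodes PU.1, was itself measured at 338, 323 and 414 CPM in the cells of libraries 2, 3 and 4, where CPM scales the UMIs of each gene to 1000000 in the class and library.

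The cells were spread very unevenly over the libraries. Library 4 held 1683 of them, library 3 held 136, library 2 held 81 and library 1 held 3, so that 88.4% came from library 4. They were 18.9% of the kept barcodes of library 4 (95% Clopper-Pearson interval 18.1 to 19.8%), 2.01% of library 3 (1.68 to 2.37%), 0.940% of library 2 (0.747 to 1.17%) and 0.0382% of library 1 (0.00788 to 0.112%). None of these intervals overlap, but they and the Poisson intervals on CPM cover counting error only, not the spread between mice. The barcodes that passed every other part of the rule with 0 UMIs of Chil3, called Chil3-negative monocytes below, numbered 53, 120, 155 and 1155 in libraries 1 to 4. Cells with Chil3 were thus 5.36%, 40.3%, 46.7% and 59.3% of both classes together, with intervals that overlap between libraries 2 and 3, lie lower in library 1 and lie higher in library 4. Depth differed between the libraries, and with each cell of at least 3000 UMIs thinned to 3000 the shares were 33.3% (63 of 189, 26.7 to 40.5%), 32.1% (90 of 280) and 39.2% (1088 of 2775, 37.4 to 41.1%) in libraries 2, 3 and 4, which lay closer together, with intervals that all overlap. Values for a single library are given for libraries 2, 3 and 4 only, because 3 cells are too few.

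**Figure D1:**
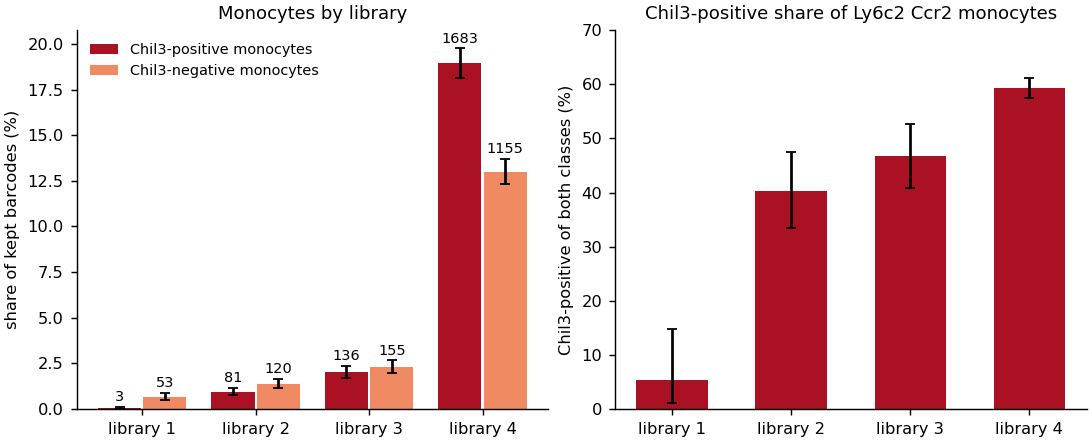
The left panel plots the share of kept barcodes (%) that were Chil3-positive or Chil3-negative monocytes in each library, with the number of barcodes above each bar, and the right panel plots the Chil3-positive share of both classes (%). Error bars are 95% Clopper-Pearson intervals. Library 4 stands far above the others in the left panel, and library 1 lies below them in both.

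The rule drew its line through a continuous range. Of the 1903 cells, 594 held 1 UMI of Chil3, 287 held 2, 215 held 3 and 807 held 4 or more, with a median of 3 and a maximum of 43. Just outside it, 304 barcodes failed only by a single Ly6c2 UMI, 120 only by the lack of Ccr2, 35 only by 1 to 2% of S100a8 and S100a9, 75 only by 0.3 to 1% of the C1q genes and 111 only by the collagen genes. The cells held a median of 6454, 7724 and 8906 UMIs in libraries 2, 3 and 4, against 6222, 7417 and 8649 in the Chil3-negative ones, so both classes were of similar depth. Only 33 cells held over 25000 UMIs, but these 1.73% carried 8.85% of all UMIs of the class, and 2 of them carried 12.7% of those of library 3. Of the cell barcode sequences, 101 occurred in more than 1 library, 11 of the cells carried such a sequence, and no sequence was shared by cells of the class in different libraries.

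The cells carried the transcripts of classical monocytes. Plac8, named with the class but not used in the rule, was found in 99.3% of the cells at 3144, 3229.8 and 3400.2 CPM in libraries 2, 3 and 4, against 117, 308 and 442 CPM in T cells of the same libraries. Lyz2, the lysozyme of myeloid cells, reached 13357, 11299.5 and 13871 CPM, and Ms4a4c, a membrane protein of Ly6C-high monocytes, 781, 1225 and 1569 CPM. Fcgr1, the high-affinity Fc receptor CD64, stood at 633, 1203 and 1375 CPM, Vcan, the proteoglycan versican, at 551, 411 and 664 CPM, and F13a1, a clotting factor subunit, at 551, 599.6 and 620.2 CPM. All 13 monocyte markers other than the rule genes were detected, and together they made up 22179.7, 20752 and 24298 CPM, against 422, 702 and 2809.8 CPM in T cells. T cells, barcodes with at least 2 UMIs of Cd3d, Cd3e and Cd3g, should lack most of these genes, so their level gives a background from other cells. This limit was also passed by 8 Chil3-positive and 30 Chil3-negative barcodes, so the T cells may include barcodes of the monocyte classes. Their level may then overstate the background. Free RNA and doublets, which were kept, cannot be told apart in this background. It was highest in library 4, where Chil3 itself stood at 19.1 CPM in T cells, of which 6.73% held a UMI at a median depth of 5084 UMIs. Chil3-positive cells were at 440.0 CPM there, at a median depth of 8906 UMIs. Chil3 and Ly6c2 have close relatives, and in the last 500 bases of their transcripts 77 of the 451 stretches of 50 bases in Chil3 also occur in Chil4 and 90 of the 451 in Ly6c2 occur in Ly6c1. Chil4 was at 0 UMIs in the class, and Ly6c1 at 811 CPM, and how reads were split between Ly6c1 and Ly6c2 is uncertain.

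Of the transcripts that define other cell types, many were at or near 0, but some lists had sums well above it. Plasmacytoid dendritic cell markers summed to 980.0 CPM, most of it Bst2, which interferon also induces (842 CPM), with Siglech at 5.82 CPM, and to 414 CPM in T cells. Fibroblast markers summed to 938 CPM, led by the rule gene Col3a1 (441 CPM), and to 2481 CPM in T cells. Among neutrophil markers, Ngp, a secondary granule protein, was at 0 UMIs of 18715089, and Camp, Ltf and Ly6g were at 0.214, 0.321 and 0.534 CPM over the class. The neutrophil markers together made up 798 CPM, most of it S100a8 (299.5 CPM) and S100a9 (263 CPM), which the rule limits, against 89656 CPM in neutrophils. Elane, Mpo and Ctsg, the primary granule genes of marrow precursors, were at 0.267, 1.18 and 0.214 CPM, whereas Prtn3, of the same group, was at 27.3 CPM, and at 1.91 CPM in T cells. The epithelial gene Cldn4 was at 0, and the keratin genes Krt8 and Krt18 under 1 CPM. T cell markers summed to 16.6 CPM and NK cell markers to 29.4 CPM. Markers of conventional dendritic cells summed to 55.0 CPM, led by Fscn1 (19.4 CPM) and Clec10a (17.6 CPM), with Flt3, the receptor that dendritic cell precursors need, at 2.30 CPM. Of the patrolling monocyte genes, Ace, Treml4, Spn and Cx3cr1 lay between 5.50 and 20.3 CPM, while Fcgr4 and Nr4a1, which other myeloid cells also use, were at 237 and 120.4 CPM. Of the basophil and mast cell markers none passed 1.12 CPM, and of the endothelial ones Kdr led with 50.8 CPM in a sum of 76.4 CPM.

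**Figure D2:**
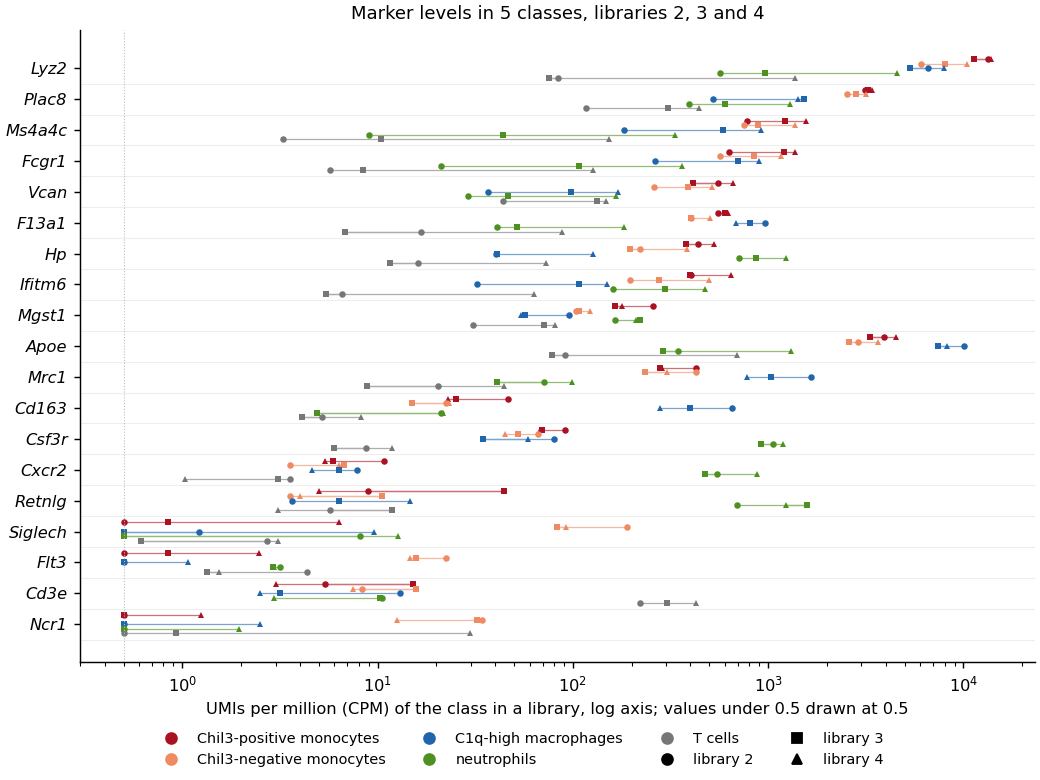
CPM (log axis) of marker genes in 5 classes of barcodes, with 1 point for each of libraries 2, 3 and 4 and a line joining them. Chil3-positive monocytes (dark red) lie highest for Lyz2, Plac8 and Ms4a4c, while Siglech, Flt3 and Ncr1 lie higher in Chil3-negative (orange) than in Chil3-positive monocytes, and T cells (grey) hold more Lyz2 and Ms4a4c in library 4 than in the other 2. Values under 0.5 CPM are drawn at 0.5.

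Macrophage genes were present in part. Apoe, the lipid carrier that macrophages make in quantity, stood at 3916, 3340.1 and 4511 CPM in libraries 2, 3 and 4, against 90.6, 78.1 and 693 CPM in T cells, and Pf4, a CXC chemokine of platelets and some macrophages, at 3748, 4874 and 3216 CPM, against 171, 210.4 and 886 CPM in T cells. The macrophage list summed to 5752, 4879.6 and 6395 CPM, against 261, 215 and 1179 CPM in T cells. Hbb-bs and Hba-a1, globin genes of red cells, were at 68.3 and 16.4 CPM, and Ppbp, the other platelet gene of the list, at 226 CPM, and at 19.9 CPM in T cells. Maf, Ms4a7, Mrc1 and Trem2 were at 530.1, 436, 289 and 212 CPM, and Cd163, the haemoglobin scavenger receptor of resident macrophages, at 23.7 CPM. A UMI of Cd163 was found in 8.73% of the cells of library 4 and in 6.25% of its T cells, which were shallower (median depths of 8906 and 5084 UMIs). The Pf4 transcripts were concentrated, since the tenth of cells richest in it held 64.7% of its UMIs in library 4.

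Ribosomal and mitochondrial genes were left out of the ranking by their names (Rpl, Rps and mt-). The most abundant transcripts were then Actb (15289 CPM), Tmsb4x (14617 CPM) and Lyz2 (13686 CPM), followed by the iron store genes Fth1 (12221 CPM) and Ftl1 (10246 CPM) and the nuclear RNA Malat1 (11184 CPM). Ifitm3 (7647 CPM) and Ifi27l2a (4468 CPM), both induced by interferon, stood among the first 20, as did Cxcl2 (6035 CPM), S100a6 (5060.2 CPM), Vim (4643 CPM), Fcer1g (4369 CPM), the lysosomal protease gene Ctsb (4046 CPM), Srgn (3879 CPM) and Lgals3 (3489.8 CPM). Apoe, the housekeeping genes Tpt1 (5924 CPM), H3f3b (4713 CPM) and Actg1 (4047 CPM), and Fau (4418 CPM), a ribosomal protein gene without such a name, complete the 20. Ribosomal protein genes took 10.5% of the UMIs of the class, against 15.4% in C1q-high macrophages and 4.67% in neutrophils. Each captured molecule was counted once, so these levels were not divided by transcript length.

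Chemokines were abundant among the secreted signals, and all 16 of the list were detected, for 22535, 32329.6 and 21918 CPM together. Cxcl2, which draws neutrophils through Cxcr2, led with 6638, 9805 and 5755 CPM. Of the ligands of Ccr2, Ccl2 stood at 1988, 3583 and 2517 CPM, Ccl7 at 2304, 2829 and 1606 CPM and Ccl12 at 613, 716 and 918 CPM. Ccl6 and Ccl9, which act on Ccr1, stood at 2272, 2953 and 3109 CPM and at 1553, 1954 and 1889 CPM, and Ccl4 at 2881, 5286 and 2635 CPM. Ccl2 was also high in T cells (1961 CPM), and whether these transcripts were free RNA was not tested, while Ccl6 was at 144 CPM in them. Cxcl9 was nearly absent (4.01 CPM), and Cxcl10, like it an interferon-induced ligand of Cxcr3, was at 693 CPM, against 164 CPM in T cells.

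Among the receptors, Ccr1 stood at 463, 319 and 310.3 CPM and Cxcr4, which holds leucocytes in the marrow, at 381, 195 and 93.4 CPM, while Cx3cr1 was at 20.3 CPM. Of the adhesion genes, Itgam (CD11b) was at 527 CPM and Cd44, a receptor for hyaluronan, at 526 CPM. Of the cytokine and growth factor genes, Thbs1, which encodes a matrix protein that blocks vessel growth, was at 976, 861 and 761 CPM and Il1b, the inflammatory interleukin, at 1934, 1304 and 408 CPM. Tgfb1 and Tnf were at 222 and 221 CPM, and Il12b, the p40 subunit of the cytokine that drives type 1 responses, at 0 UMIs, which allows up to 0.160 CPM at a count of 3. Of the genes named as suppressive, Spp1 (osteopontin) was at 565, 2036 and 2610.1 CPM. Vsir was at 225 CPM, Cd274 (PD-L1) at 44.7 CPM, against 33.2 CPM in T cells, Nos2 at 15.9 CPM and Ido1 at 0.0534 CPM from a single UMI. Proliferation genes were low, as Mki67 or Top2a had a UMI in 13.0% of the cells of library 4, and the deepest cells held most of it: Mki67 was at 24.5 CPM there and at 7.90 CPM without the cells above 25000 UMIs.

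Among lineage transcription factors, Cebpb, which drives myeloid inflammatory genes, stood at 2567, 2094 and 1130.5 CPM, Klf4, needed for monocyte formation, at 452, 232 and 161 CPM and Irf8 at 169.8, 136 and 164 CPM. Cebpb and Klf4 were highest in library 2. Of the receptors for microbes and antibodies, Cd14, the coreceptor for lipopolysaccharide, stood at 1192, 1055 and 552 CPM, Fcgr3, a low-affinity Fc receptor, at 638, 444 and 539 CPM and Tlr2 at 206, 217 and 112 CPM. Since RSL3 acts on Gpx4, the enzyme that repairs oxidised lipids, the genes of lipid peroxidation were listed. Gpx4 stood at 236, 228 and 258 CPM, Slc7a11, the cystine carrier that feeds glutathione, at 125, 76.6 and 25.7 CPM, and Alox5ap, the helper of 5-lipoxygenase, at 1126, 1109 and 1196 CPM. No treatment can be assigned to these libraries. Of the glycolysis and hypoxia genes, Pkm stood at 1296, 1847 and 1888 CPM, Ldha at 835, 1257 and 1095 CPM, and the hypoxia factor gene Hif1a at 627, 289 and 369 CPM.

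The cells were first compared with the Chil3-negative monocytes. A gene was called here when its ratio of CPM, after adding 10 CPM to both, was at least 2-fold in the same direction in each of libraries 2, 3 and 4, with no test behind it. Of 5800 genes with at least 20 CPM in either class, 0 were called higher (0%) and 26 were called lower (0.448%), and the median log2 ratio over all of them was -0.03. The genes of the rule were left out. Most of the 26 were under 20 CPM over the Chil3-positive class, as were Ccr9 (4.49 CPM), Siglech (5.82 CPM) and Klrd1 (6.52 CPM). Such genes entered only through the Chil3-negative class, where they are high, so their number says little about the Chil3-positive cells. The genes lower became 64 without library 4, 42 with 1 CPM added and 5 among genes of at least 100 CPM, and at 1.5-fold 3 were higher and 60 lower. The most reduced were genes of plasmacytoid dendritic cells and of NK cells. Siglech, a lectin of plasmacytoid cells, stood at 0, 0.842 and 6.37 CPM in Chil3-positive and 189, 82.5 and 91.9 CPM in Chil3-negative cells, Ccr9 at 1.79, 1.68 and 4.78 against 144, 126 and 62.6 CPM, and Klk1 at 0, 0 and 8.55 against 387, 56.2 and 99.5 CPM. Gzma, the NK granzyme, stood at 0, 4.21 and 15.9 against 84.0, 247 and 150.5 CPM, and Klrd1, the NK receptor CD94, at 0, 0 and 7.20 against 49.7, 54.7 and 27.0 CPM. In each of these genes the highest library of the Chil3-positive cells lay below the lowest of the others. Cd7, Nkg7, Il2rb, Gpr171, Ptprcap, Bcl11a, Sept1, Atp1b1, Ighm and Cox6a2 were called lower as well.

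These genes came from few barcodes. At least 2 UMIs of plasmacytoid genes (Siglech, Ccr9, Klk1, Cox6a2), of Cd3 genes or of NK genes (Ncr1, Klrd1, Nkg7, Gzma) were held by 12.6% of the Chil3-negative barcodes (187 of 1483) and by 2.05% of the Chil3-positive ones (39 of 1903). Without these barcodes, which takes out the listed genes by construction, 4 genes were called lower of 5611 tested and 0 higher. All 4 belong to MHC class II (H2-Aa, H2-Eb1, H2-DMb1 and the pseudogene H2-Ea-ps).

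MHC class II molecules show peptides to CD4 T cells, and monocytes gain them as they turn into macrophages or dendritic cells. H2-Aa stood at 731, 115 and 309.9 CPM in Chil3-positive cells of libraries 2, 3 and 4 and at 1476, 739 and 826 CPM in Chil3-negative ones, H2-Ab1 at 474, 101 and 238 against 897, 558 and 663 CPM, and H2-Eb1 at 281, 45.5 and 190.1 against 675, 334 and 486 CPM. Cd74, the invariant chain, stood at 1982, 473 and 904 against 3808, 2263 and 2182 CPM. Every library thus gave the lower value to the Chil3-positive cells, although library 2 of the Chil3-positive cells was close to library 3 of the Chil3-negative ones. H2-Aa, H2-Eb1 and H2-DMb1 were called lower out of 6 class II genes tested, with a median log2 ratio of -1.35, and H2-Ab1 and Cd74 missed the call by library 2 (-0.91 and -0.94 on the log2 scale). Without the barcodes of other lineages H2-Aa was at 731, 129 and 233 against 1481, 607 and 739 CPM, a median log2 ratio of -1.62, and Cd74 at 1982, 537 and 735 against 3705, 2109.7 and 1994 CPM. T cells, for the background, held H2-Aa at 342, 37.9 and 121 CPM.

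**Figure D3:**
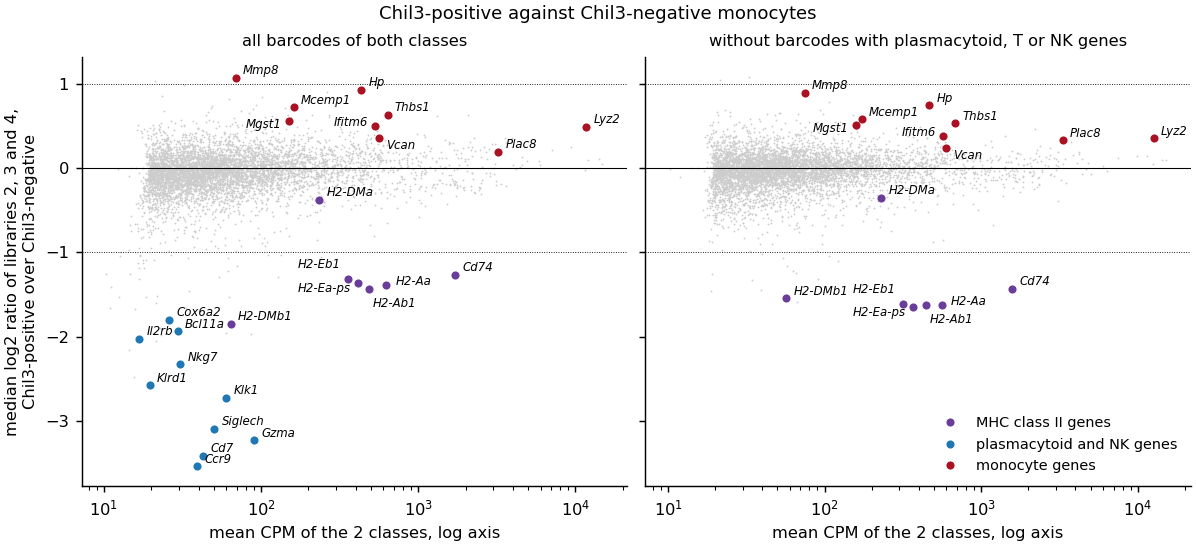
Each grey point is a gene, placed by its mean CPM in both classes (log axis) and by the median over libraries 2, 3 and 4 of its log2 ratio, Chil3-positive over Chil3-negative; dotted lines mark 2-fold. MHC class II genes (purple) other than H2-DMa lie below the lower line in the right panel, from which barcodes with plasmacytoid, T or NK genes were removed, whereas plasmacytoid and NK genes (blue) are marked only in the left panel.

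The class II genes H2-Aa and H2-Eb1 carry the finding, so the 250 bases before their starts are given, again from RefSeq for GRCm38.p6. Capitals mark CTGATTGG, the Y box of class II promoters, searched on both strands.
H2-Aa, chr17:34287824-34288073, minus strand: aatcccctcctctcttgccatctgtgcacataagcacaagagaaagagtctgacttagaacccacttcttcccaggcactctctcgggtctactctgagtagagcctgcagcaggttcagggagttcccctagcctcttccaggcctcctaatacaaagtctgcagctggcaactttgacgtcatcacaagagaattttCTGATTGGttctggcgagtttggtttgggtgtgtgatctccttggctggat
H2-Eb1, chr17:34305617-34305866, plus strand: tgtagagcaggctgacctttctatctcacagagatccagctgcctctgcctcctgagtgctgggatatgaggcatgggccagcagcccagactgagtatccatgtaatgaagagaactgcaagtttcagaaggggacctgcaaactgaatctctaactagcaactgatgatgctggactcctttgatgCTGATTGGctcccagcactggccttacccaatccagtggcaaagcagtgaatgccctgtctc
The Y box ends 43 bases before the start of H2-Aa and 54 before that of H2-Eb1. It was found in these 2 of the 4 listed class II genes with a promoter of their own in the table, and in 3.83% of all 32851 windows.

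Most class II UMIs sat in few cells. At least 1 UMI of H2-Aa, H2-Ab1 or H2-Eb1 was found in 43 of 81 cells in library 2, 61 of 136 in library 3 and 1063 of 1683 in library 4, and the richest 9, 14 and 169 cells held 91.0, 80.7 and 88.5% of these UMIs. For H2-Aa alone the share of cells with a UMI in library 4 was 34.2%, against 28.4% of its T cells, so single UMIs are hard to tell from background. Of the 1903 cells, 122 (6.41%) held 10 or more UMIs of H2-Aa, H2-Ab1 and H2-Eb1 together and with them 85.6% of all such UMIs. They were 8 of 81 cells in library 2, 6 of 136 in library 3 and 106 of 1683 in library 4, where they held a median of 11964 UMIs against 8843 in the other cells. Flt3 was at 16.2 CPM in these cells of library 4 and at 0.919 CPM in the rest, Cd209a at 45.8 and 0.919 CPM, Ciita, the master regulator of class II genes, at 49.9 and 2.76 CPM, and Lyz2 at 8358 and 14495 CPM. Siglech was at 45.8 and 1.90 CPM, and the proliferation gene Mki67 at 86.4 and 17.5 CPM. Of these 106 cells, 15 held plasmacytoid, T or NK genes and 9 held over 25000 UMIs, and the part of either in the result was not tested. The limit of 10 UMIs was set after the values were seen.

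High class II counts were less frequent among cells with more Chil3 in library 4, although the median cell held 1 class II UMI at every Chil3 count. The share of cells with 10 or more class II UMIs was 15.6% with 0 UMIs of Chil3 (13.5 to 17.8%), 10.0% with 1 (7.60 to 12.9%), 6.75% with 2, 6.35% with 3 and 3.43% with 4 or more (2.23 to 5.03%). The intervals at 1 UMI and at 4 or more do not overlap, while those at 2 and 3 overlap with both neighbours. To hold depth equal, each cell of both classes with at least 3000 UMIs was thinned at random to 3000 and grouped by the Chil3 UMIs that were left (0, 1, 2, or 3 or more), so that the group at 0 in library 4 held 1687 cells, of which 571 were Chil3-positive before thinning. H2-Aa then stood at 607, 287, 117 and 78.3 CPM over these groups in library 4, at 440.4, 163, 115 and 43.5 CPM in library 3, and at 981, 391, 370.4 and 1333 CPM in library 2, whose highest group holds 25 cells and breaks the order. Of 1714 genes with at least 100 CPM in some group of library 4, 67 were lower and 125 were higher at each step, 8 of the former and 1 of the latter by 2-fold or more from end to end. Some genes without any trend also fall in such an order, and their share was not worked out. The counts of 67 and 125 are therefore no measure of a link with Chil3. The 8 lower by 2-fold or more were H2-Aa, H2-Ab1, H2-Eb1, H2-Ea-ps, Cd74, Ccl5, Irf8 and Tcf4. Irf8 and Tcf4 are factors of dendritic cells, and most of the difference lay between 0 and 1 UMI (Irf8 304, 163, 146 and 145 CPM). Markers of other lineages lay mostly in the group at 0, with Siglech at 85.8, 8.95, 1.38 and 5.52 CPM, Gzma at 110.1, 26.9, 2.75 and 2.76 CPM and Flt3 at 11.1, 0.689, 1.38 and 0.921 CPM over the groups of library 4. Without the barcodes that held plasmacytoid, T or NK genes, which left 1533, 473, 240 and 359 cells in these groups, H2-Aa stood at 521, 223, 118 and 73.4 CPM in library 4 and at 379.5, 167, 115 and 43.5 CPM in library 3, lower at each step in both, and at 896, 391, 370.4 and 1333 CPM in library 2. Irf8 then stood at 168, 155, 146 and 143 CPM in library 4 and Tcf4 at 125, 98.0, 98.6 and 79.9 CPM, less than 2-fold from end to end. Between the whole classes, without the barcodes that held plasmacytoid, T or NK genes, Irf8 was at 169.8, 157 and 157 against 158, 169.5 and 159 CPM (median log2 ratio -0.02) and Tcf4 at 107, 83.7 and 103 against 147, 106 and 125 CPM (-0.31).

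Transcripts that were higher at each step of Chil3 in library 4 included Hopx (80.4, 121, 134 and 179 CPM, the one past 2-fold, named after its values were seen, as was Mcemp1), Mcemp1, a membrane protein of mast cells and monocytes (168, 244, 253 and 317 CPM), Mgst1, a glutathione transferase (147, 174, 187 and 282 CPM), Ifitm6 (589, 689, 751 and 913 CPM) and Hp, the haemoglobin binder haptoglobin (473, 559, 667 and 725 CPM). Lyz2 followed the same order, with 12393, 13779.6, 16279.6 and 18314 CPM. The other libraries gave this order for some of these genes only. Hp gave the same order in library 2 (246, 345, 481 and 507 CPM) and in library 3 (265, 366, 423 and 464 CPM), while Mgst1 did so in library 2 (146, 149, 259 and 307 CPM) but not in library 3 (119, 106, 256 and 174 CPM). Lyz2 kept it in library 2 (7706, 9563, 14111 and 16360 CPM) and broke it at the last step in library 3 (9609, 11244, 13897 and 13116 CPM), while Mcemp1 broke it in library 2 (95.2, 149, 0 and 200 CPM) and kept it in library 3 (128, 130.1, 244 and 261 CPM). Ifitm6 broke it in library 2 (241, 437, 333 and 333 CPM) and in library 3 (356, 349.6, 526 and 638 CPM). Neutrophil transcripts went both ways over the groups of library 4. S100a8, which the rule limits, stood at 197, 275, 376 and 444 CPM and Mmp8, a collagenase kept in granules, at 57.9, 90.9, 84.0 and 121 CPM. Csf3r and Lcn2 also ended higher than they began. S100a9, limited by the rule as well, stood at 223, 238, 302 and 207 CPM and Mmp9 at 34.6, 21.3, 28.9 and 17.5 CPM, and both ended lower. Retnlg stood at 4.74, 4.82, 2.75 and 4.60 CPM and Ngp, of the granules of immature neutrophils, at 0 UMIs in each group, and the part of neutrophil RNA in the result was not tested. Between the whole classes the ratios were smaller than 2-fold in at least 1 library. Hp stood at 439.7, 382 and 529.6 CPM in Chil3-positive and 220.0, 195 and 386 CPM in Chil3-negative cells, and Mmp8 at 118, 132 and 84.2 against 50.9, 48.7 and 51.6 CPM.

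**Figure D4:**
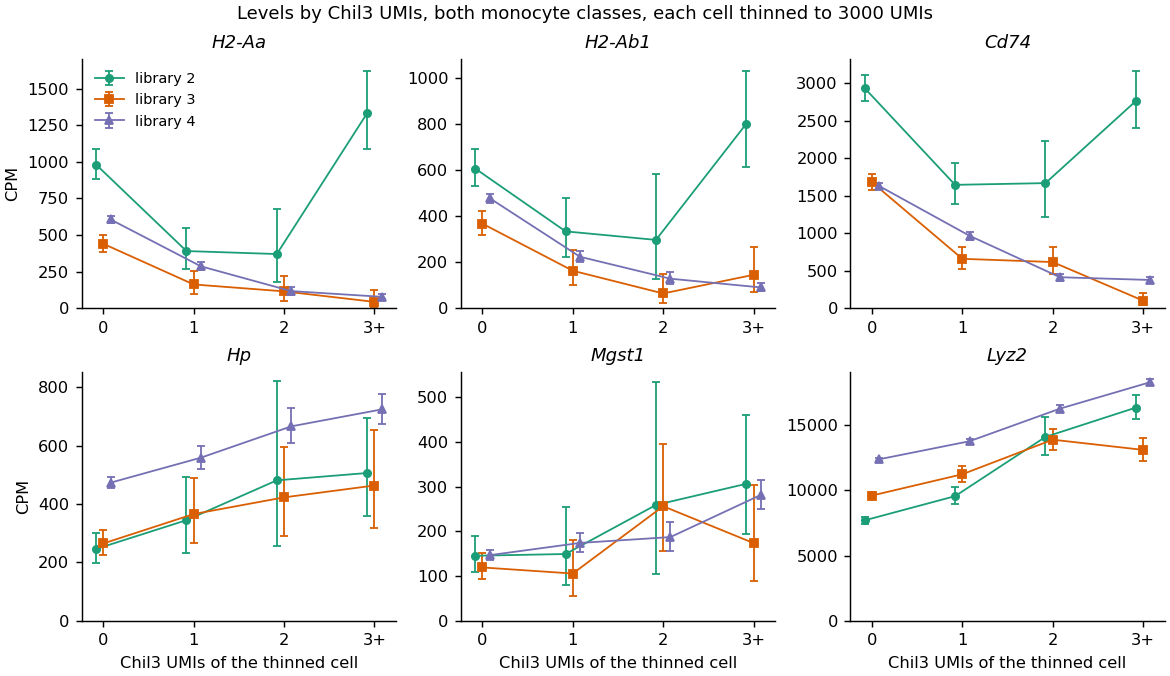
CPM of 6 genes in monocytes of both classes thinned to 3000 UMIs each, against the Chil3 UMIs left in the cell, for libraries 2, 3 and 4. Bars are 95% Poisson intervals (counting error only); H2-Aa, H2-Ab1 and Cd74 are lower at each step in library 4 and high again at 3 or more UMIs in library 2, while Hp, Mgst1 and Lyz2 are higher at the end of the axis than at its start in all 3 libraries.

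The other lists held no called gene, which is also what the shares over all genes give (0% higher and 0.448% lower), so their medians are given beside the -0.03 over all genes. Conventional dendritic cell markers lay lowest, with a median log2 ratio of -0.82 over 3 tested. Even the highest of this list in the Chil3-positive class, Fscn1 (19.4 CPM), lay below the minimum CPM for testing. The 3 therefore entered only through the Chil3-negative class, where they are higher, so their low median says little. The sums over all 9 markers, tested or not, were 57.2, 59.8 and 54.6 CPM against 189, 189.7 and 124 CPM, lower in each library. The 8 cell cycle genes had a median of -0.68, with sums of 156, 529 and 295 against 381, 471 and 481 CPM, higher in library 3 and lower in the other 2. Without the cells above 25000 UMIs these sums were 156, 203 and 179.6 against 291, 273 and 244 CPM, lower in all 3. No gene was called among 13 monocyte markers (median log2 ratio 0.33), 15 chemokines (0.23), 15 interferon-stimulated genes (0.28), 10 cytokines and growth factors (0.14), 12 NADPH oxidase and antioxidant genes (0.20) and 12 glycolysis and hypoxia genes (0.07). Macrophage markers were not called either, with 8 tested and a median of 0.27, nor were neutrophil markers, with 4 tested and a median of 0.47. Plac8 was at 3144, 3229.8 and 3400.2 CPM against 2537, 2812 and 3161 CPM.

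C1q-high macrophages of the same libraries were the mature end against which the cells were set. They were kept barcodes with at least 0.3% of their UMIs in the C1q genes, a UMI of Csf1r and little calprotectin and collagen, and numbered 459, 46 and 290 in libraries 2, 3 and 4. Of 6014 genes, 70 were called higher in the Chil3-positive monocytes (1.16%) and 70 lower (1.16%), which became 128 and 127 without library 4, 123 and 114 with 1 CPM added, and 37 and 33 among genes of at least 100 CPM. Of 13 monocyte markers, 6 were called higher and 0 lower, with a median log2 ratio of 1.06, and Plac8, Vcan, Hp, Mgst1 and Ifitm6 were among the former. Of 9 macrophage markers, 6 were called lower (Mrc1, Cd163, Adgre1, Trem2, Folr2 and Ms4a7), with a median of -1.37.

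Among the genes furthest above macrophages, Hp stood at 439.7, 382 and 529.6 CPM in the monocytes and 40.3, 41.1 and 127 CPM in the macrophages of libraries 2, 3 and 4. Thbs1 stood at 976, 861 and 761 against 112, 142 and 216 CPM, and Clec7a, the beta-glucan receptor dectin-1, at 618, 233 and 133 against 49.6, 37.9 and 16.0 CPM. Slpi, a protease inhibitor, the clotting factor gene F10, Mcemp1, Napsa, an aspartic protease, and Dmkn gave median log2 ratios between 2.39 (Mcemp1) and 3.13 (Dmkn). The call itself requires the monocytes to be higher in each of libraries 2, 3 and 4, so this holds for all 8 by choice. Dmkn (8.32 CPM) and Mcemp1 (18.4 CPM) lay under 20 CPM over the macrophages. Both therefore entered only through the Chil3-positive cells, where they are high. Over all 4 libraries Clec7a stood at 154 CPM in the monocytes and 240.3 CPM in the macrophages, of which library 1 holds 1171 of 1966 and gave 329 CPM. Il1b, Vegfa, Ptgs2, the prostaglandin synthase COX-2, Trem1, Itgal and Cybb, the catalytic subunit of the NADPH oxidase, were called higher too, and so were the interferon-stimulated genes Rsad2 and Mx1 (2 of 16 tested, median 0.87).

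Furthest below macrophages was Cd163, at 46.5, 25.3 and 22.9 CPM against 655, 398 and 278 CPM (median log2 ratio -3.53). Gas6, the ligand by which macrophages take up dying cells, gave a median log2 ratio of -3.47, Npl one of -3.42, Cbr2 one of -3.24 and Fcrls one of -3.21. Ccl8, a chemokine of resident macrophages, followed with 759.6, 849 and 1311 against 11541, 6048 and 6872 CPM (-2.82), then the lectin gene Clec10a (-2.80) and the selenium carrier Selenop (-2.66). Gas6 (19.4 CPM), Npl (4.70 CPM), Fcrls (8.39 CPM) and Clec10a (17.6 CPM) lay under 20 CPM over the Chil3-positive class. These genes entered only through the macrophages, where they are high, so they say little about the Chil3-positive cells. The 70 called lower include them. Hmox1, the haem-degrading enzyme, stood at 524, 872 and 732 against 1103, 2476 and 2338 CPM, and with Cd163 and Blvrb it made 3 of 7 iron and haem genes called lower. Pf4 stood at 3748, 4874 and 3216 against 7713, 22568 and 12734 CPM and the lysosomal protease gene Ctsd at 1210.1, 1646 and 1905 against 3675, 4178 and 4476 CPM. The class II genes were not called against macrophages of this kind (0 of 7, median 0.20), with H2-Aa in these macrophages at 784, 199 and 164 CPM in libraries 2, 3 and 4. Macrophages of library 1, which holds 3 of the monocytes and entered no call, stood at 6251 CPM of H2-Aa and 19813 CPM of Cd74. Over all libraries the class II list summed to 1891 CPM in the monocytes and 26035 CPM in the macrophages. Ly6c2, a gene of the rule, stood at 46.9, 313 and 600.2 CPM in the macrophages of libraries 2, 3 and 4. The part of monocyte RNA in this was not tested.

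Against neutrophils, which share a marrow precursor with monocytes, far more genes differed. They were kept barcodes with at least 1% of UMIs in S100a8 and S100a9, a UMI of Csf3r and little C1q and collagen, 1989, 1989 and 1660 in libraries 2, 3 and 4, and they were shallower, with medians of 1854, 2022 and 1810 UMIs. Of 5863 genes, 688 were called higher in the monocytes (11.7%) and 364 lower (6.21%), and these counts became 1084 and 426 without library 4 and 1215 higher without the highest 5% of doublet scores. They became 426 higher with S100a8 and S100a9 under 0.5%, 1088 higher under 2%, 1265 higher with 1 CPM added, and 421 higher and 206 lower among genes of at least 100 CPM. They lay around a median log2 ratio over all genes of 0.49, relative to which these values should be read. Ms4a4c stood at 781, 1225 and 1569 CPM in the monocytes and 9.01, 43.6 and 333 CPM in the neutrophils, and Lyz2 at 13357, 11299.5 and 13871 against 569, 959 and 4564 CPM. Ms4a6c, Ms4a6d and Ms4a6b, relatives of Ms4a4c, gave median log2 ratios of 4.10, 3.91 and 3.79, the complement receptor gene C3ar1 one of 3.78 and the interferon-induced Ifi44 one of 3.67. Neutrophils of library 4 held more Lyz2 and Ms4a4c than those of libraries 2 and 3, as did T cells of library 4.

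Lower than in neutrophils were Retnlg, at 8.94, 44.6 and 5.01 against 691, 1581 and 1239 CPM, and Cxcr2, the receptor for Cxcl2, at 10.7, 5.90 and 5.37 against 549, 474 and 875 CPM. G0s2, the stefin genes Stfa2l1, Stfa2 and BC100530 and 1 more gene without a full name, the protease gene Asprv1 and Hdc, the histamine-making enzyme, gave median log2 ratios between -5.10 and -6.10. Retnlg (7.64 CPM), Stfa2l1 (14.5 CPM), Stfa2 (3.21 CPM), BC100530 (13.6 CPM) and Asprv1 (10.6 CPM) lay under 20 CPM over the Chil3-positive class. Cxcr2 lay under it in each library given. These genes entered only through the neutrophils, where they are high, so they say little about the Chil3-positive cells. The 364 called lower include them. Il1b stood at 1934, 1304 and 408 against 15498, 13609 and 9527 CPM and Cxcl2 at 6638, 9805 and 5755 against 45284, 47632 and 37610.3 CPM, and both were called lower, with Cxcl3 and Ccl3 among the chemokines. Of 15 chemokines tested 8 were higher in the monocytes (Ccl2, Ccl6, Ccl7, Ccl8, Ccl9, Ccl12, Ccl24 and Cxcl16) and 3 lower. Ccl12 stood at 613, 716 and 918 against 14.4, 53.5 and 205 CPM. Cd274, Ptgs2 and Trem1 were called lower than in neutrophils. Hp stood at 439.7, 382 and 529.6 against 709, 869 and 1231 CPM, with more in neutrophils of each library but no call.

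Between libraries, Plac8 and Lyz2 differed by less than 2-fold. Of 1836 genes with at least 100 CPM in one of libraries 2, 3 and 4, 184 differed by 2-fold or more between the highest and the lowest of them, after adding 10 CPM (10%), of which 83 were highest in library 2, 75 in library 3 and 26 in library 4. Interferon-stimulated genes summed lowest in library 2. Cxcl10 stood at 327, 1014 and 684 CPM, Rsad2, the antiviral protein viperin, at 708, 1907 and 1096 CPM, Ifit1 at 105, 328 and 299 CPM, Isg15, a ubiquitin-like modifier, at 1433, 1822 and 2165 CPM and Irf7, the factor that drives interferon genes, at 645, 1019.9 and 1012 CPM. Isg15 and Irf7 stayed under 2-fold. The 16 genes of the list summed to 4509.6, 8779.7 and 7797 CPM, and in Chil3-negative cells to 4332, 5814 and 6388 CPM, with library 2 again below the others. T cells held 497, 922 and 1562 CPM of them. Ifit3b, a near copy of Ifit3 whose reads can be split between both, had 0 UMIs in library 2 and stood at 112 and 75.6 CPM in libraries 3 and 4.

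Isg15 was the most abundant of the 16 listed interferon-stimulated genes, and its promoter shows the element that such genes share. Capitals mark the core of the interferon-stimulated response element on either strand (GAAA, then 2 bases of any kind, then GAAA), here in 3 overlapping copies that end 68, 62 and 56 bases before the start.
Isg15, chr4:156200819-156201068, minus strand: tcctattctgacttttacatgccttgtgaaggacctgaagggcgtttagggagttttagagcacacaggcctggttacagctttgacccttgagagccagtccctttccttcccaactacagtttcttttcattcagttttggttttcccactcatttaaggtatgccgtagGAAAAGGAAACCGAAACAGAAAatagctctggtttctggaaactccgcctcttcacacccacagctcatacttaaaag
Of the 12 listed interferon-stimulated genes that have a promoter in the table, 6 hold the element (Isg15, Ifit1, Ifit3, Rsad2, Ifi205 and Cxcl10), against 2.98% of all 32851 windows. The match describes these letters and no binding.

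Other genes were highest in library 2. Il1b stood at 1934, 1304 and 408 CPM, Clec7a at 618, 233 and 133 CPM, Il1rn, the receptor antagonist, at 409, 334 and 158 CPM and Osm at 411, 219 and 111 CPM. Lcn2, an iron-chelating protein that neutrophils also make, stood at 265, 36.2 and 26.4 CPM, with 3557 CPM in neutrophils of library 2 and 144 CPM in T cells there. Spp1 was lowest in library 2, at 565, 2036 and 2610.1 CPM, and Saa3, an acute-phase protein, lowest in library 3, at 719, 127 and 452 CPM. T cells held Saa3 at 225, 40.6 and 693 CPM, more than the monocytes in library 4, and Il1b at 226, 177 and 148 CPM. The part of free RNA in these differences was not tested. H2-Aa was lowest in library 3, at 115 CPM. Apoe, Fth1 and Lgals3 differed by less than 2-fold.

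Some library differences rested on the deepest cells. Ube2c, a mitotic gene, stood at 7.15, 123 and 25.9 CPM, but 1 cell held 117 of its 146 UMIs in library 3. Without the 33 cells above 25000 UMIs it stood at 7.15, 12.5 and 9.06 CPM. Timp1, a protease inhibitor of stromal and tumour cells, went from 1968 to 297 CPM in library 3, and Tpm2 and Cald1, contractile genes, from 119 to 15.4 and from 215 to 30.9 CPM. The differences of Cxcl10 (327, 1140.2 and 729 CPM without these cells), Il1b (1934, 1466 and 433 CPM) and H2-Aa (731, 128 and 313 CPM) kept their order. Of 1817 genes with at least 100 CPM in one of these libraries then, 173 differed by 2-fold (9.52%), 149 of which were among the 184 before. Hbb-bs, the globin gene, was highest in library 2 (118 CPM) and lowest in library 3 (13.5 CPM).

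**Figure D5:**
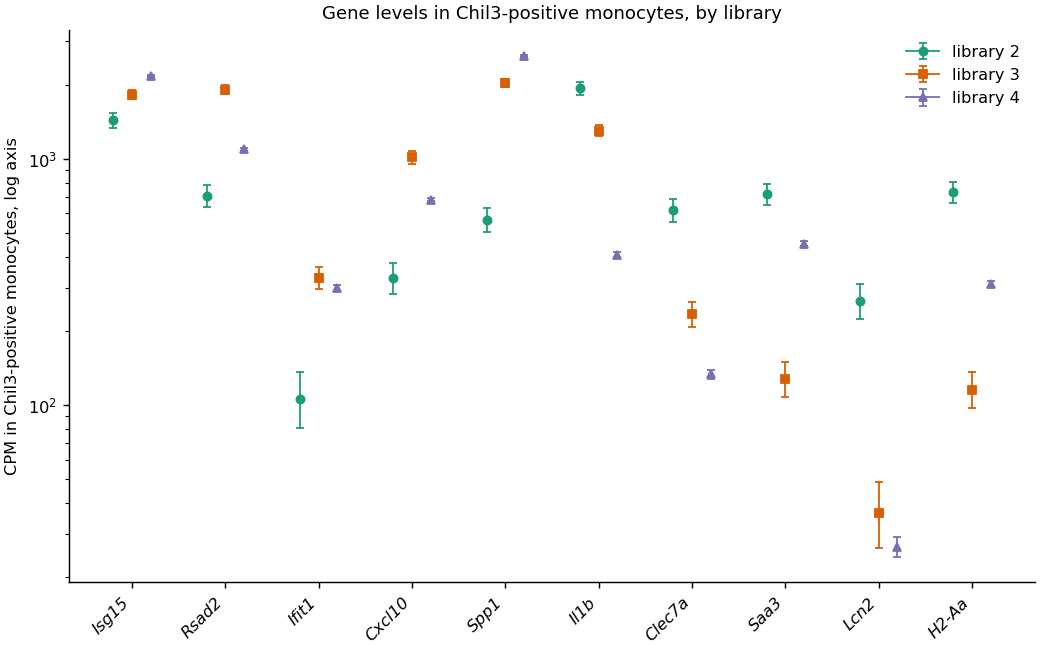
CPM (log axis) of genes that differed between libraries, in the Chil3-positive monocytes of libraries 2, 3 and 4, with 95% Poisson intervals for counting error. Isg15, Rsad2, Ifit1, Cxcl10 and Spp1 are lowest in library 2, whereas Il1b, Clec7a, Saa3, Lcn2 and H2-Aa are highest there.

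Inside library 4 these genes overlapped in single cells. After thinning to 3000 UMIs, Isg15 was detected in 86.8% of the cells with Cxcl10 (84.1 to 89.1%) and in 77.5% of those without (74.6 to 80.1%). Cxcl2 was detected in 671 of 698 cells with Il1b (96.1%) and in 883 of 961 cells without (91.9%). In neither pair did the 95% intervals overlap, and cells without the first gene mostly held the second as well. Cells of 1 library are not replicates, and these shares describe that library.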

How the data were processed

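Cells of 4 samples were profiled by droplet-based single-cell RNA sequencing, and the authors deposited 1 matrix of UMI counts of 55450 genes in 33064 barcodes. The submitters' processing notes name Cell Ranger 2.1.1 and mm10, the design text Cell Ranger 3.0.2 and Seurat 3.0.0.9000, and the matrix header Cell Ranger 6.1.2. All 55450 gene identifiers are in GENCODE M21 (GRCm38). Library totals were 108646352, 81369540, 69255999 and 96493208 UMIs.

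Counts were summed per class and library and scaled to CPM. A gene of at least 20 CPM in either class was called at 2-fold or more, with 10 CPM added, in every library with at least 30 cells of both classes. The genes of the rule were left out of the calls between classes. No test was run: treatments could not be compared, and the classes were chosen from the same counts that were compared. On simulated counts of 5752 genes for Chil3-positive against Chil3-negative monocytes, 40.8% of 98 genes changed 2.5-fold and 90.9% of 99 changed 4-fold were called, and 0 of 5555 unchanged ones. Both simulated classes were drawn per library from the Chil3-negative profile with Poisson counting error only, without the spread between cells. These shares therefore hold for counting error alone and give no rate of false calls in the real cells.

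The members, lists and named genes were chosen with earlier results of these data known. Named are genes of the lists, the first 15 called against Chil3-negative monocytes and the first 8 each way against macrophages and neutrophils, the 20 most abundant, and the 10 that varied most between libraries. Genes with only a provisional name are given by count, and some genes covered by these rules are not reported here. Doublets were kept. Scrublet in scanpy marked 3.57%, 0.0232%, 0.0442% and 0.0337% of libraries 1 to 4, too few in the last 3 to have worked, so removal of the highest 5% of its scores was an alternative. Other alternatives changed the limits of the rule, the minimum CPM, the added CPM, the depth and the libraries. Python 3.11.15, numpy 2.4.6, scipy 1.17.1, pandas 2.3.3, scanpy 1.11.5, scikit-learn 1.9.0 and matplotlib 3.10.9 were used.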

Additional observations from a re-analysis of the deposited data

How the results depend on the processing

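Ratios between classes were taken within each library, and no test of these pairs was run. Library 4 holds most of the cells, so values over the whole class are mainly values of that library, and libraries 2 and 3 limit the precision. Leaving out 1 library at a time gave 220 to 1900 cells, 0.946 to 7.82% of kept barcodes, 88.6 to 95.2% from library 4 (where it was not the one left out), 0 to 1 genes higher and 25 to 64 lower than in Chil3-negative monocytes, 70 to 128 higher and 70 to 127 lower than in macrophages, and 688 to 1084 higher and 364 to 430 lower than in neutrophils. Without library 4 the class fell to its lowest, 220 cells and 0.946%, while the counts of 64, 128, 127 and 1084 genes were reached.

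The share of kept barcodes was 6.20% with at least 500 genes, 5.27% with 3 UMIs of Ly6c2, 4.07% with 2 of Chil3 and 6.66% without barcodes above 25000 UMIs. Thinning every barcode to 1000 UMIs before the rule left 137 cells (0.453%, 90.5% from library 4). Only library 4 then had 30 cells, so 1 library decided each call, and the counts became 309 higher and 376 lower (Chil3-negative), 1037 and 850 (macrophages) and 2083 and 809 (neutrophils). Gzma turned to a log2 ratio of 0.10 there.

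Against Chil3-negative monocytes, 1 gene was higher with S100a8 and S100a9 under 2% or with libraries of at least 100 cells. The genes lower numbered 42 with 1 CPM added, 5 among genes of at least 100 CPM and 4 without barcodes of other lineages. Against macrophages, 123 were higher and 114 lower with 1 CPM added, 37 and 33 at 100 CPM, and 119 higher with libraries of at least 100 cells. Against neutrophils, 426 were higher with S100a8 and S100a9 under 0.5%, 1088 under 2%, 1215 without the highest 5% of doublet scores, 1265 with 1 CPM added, 1143 by the mean over cells, and 421 with 206 lower at 100 CPM. At 1.5-fold the counts were 3 and 60, 249 and 231, and 1921 and 619. The cause of these shifts was not tested. Of 540 values for 30 named genes, 505 kept their direction and side of 2-fold, 10 lost it, 24 gained it and 1 reversed. The removal of other lineages (also from the Chil3 groups), of deep barcodes (also from the cell cycle sums) and the 1.5-fold limit were chosen after seeing the data.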
